A study of Rattus norvegicus with 18 samples.

Results

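Genes of the interleukin-1 (IL-1) and interleukin-18 (IL-18) axis were followed in rat T cells, 6 of the 32882 genes listed in each of 3 tables of bulk 3′ mRNA-seq. They are *Il1rn*, *Il1r1*, *Il1r2*, *Il1rap*, *Il18r1* and *Il18rap*, and each was found once in every table by its gene name. The genes were selected on the differences of KO and control cells and the control levels in these same tables. The cells were CD4+ T-MBP cells, T cells of Lewis rats that are specific for myelin basic protein and that cause experimental autoimmune encephalomyelitis, a model of multiple sclerosis, when they are transferred into rats. They were recovered on day 3 post transfer and sequenced in 18 libraries, 3 in each of 6 groups.

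The groups formed 3 comparisons, each of edited cells (KO) with cells that had received a non-targeting guide (NT), whose genotype the labels give as WT. In the first, *Ets1* KO and NT cells were taken from the parenchyma of the spinal cord. In the second the same kinds of cell were taken from the spleen, and in the third, *Grk2* KO cells and their own NT cells, again from the spleen. *Ets1* encodes a transcription factor of lymphoid cells, and *Grk2* encodes a kinase that desensitizes G-protein-coupled receptors. Editing was done by electroporating Cas9 protein with 1 guide into cultured T cells, so that each KO sample was an edited pool and not a clone. According to the methods, KO and NT cells were transferred together into recipients that kept their own immune cells, and were separated afterwards by sorting on a fluorescent protein. KO cells carried the green and NT cells the blue protein in every pair, so that colour and genotype cannot be told apart.

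IL-1α and IL-1β signal through the receptor chain IL1R1 together with the accessory chain IL1RAP. The antagonist encoded by *Il1rn* occupies IL1R1 without signalling, and IL1R2 is a decoy that binds IL-1 without a signalling domain. IL-18 signals through IL18R1 and its accessory chain IL18RAP, which T cells of the type 1 helper lineage are known for. Both receptor pairs recruit the adaptor MYD88 and the IRAK kinases, and lead to NF-κB and MAP kinase activity. In experimental autoimmune encephalomyelitis, IL-1 is known to act on T cells that produce IL-17.

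The guides that define the groups are shown here in lower case, 5′ to 3′, as the study designed them.
Non-targeting: gctgcatggggcgcgaatca
*Ets1* (rat): tgctgctcggagttaacagt
*Grk2* (rat): gatttgtcagaacctccgag

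ETS factors bind DNA around a core of 4 bases, GGAA, which reads TTCC on the other strand. The 250 bases before the RefSeq start of 3 members are therefore shown, with every GGAA or TTCC in capitals, to set the member that differed most with *Ets1* KO beside 2 whose values overlapped between KO and NT in both *Ets1* tables. Sequences and positions are those of RefSeq on build GRCr8, which differs from the build of the count tables. Of the 6 members, 4 had a promoter sequence in the table used.
*Il1rn*, chr3:27520072-27520321, plus strand: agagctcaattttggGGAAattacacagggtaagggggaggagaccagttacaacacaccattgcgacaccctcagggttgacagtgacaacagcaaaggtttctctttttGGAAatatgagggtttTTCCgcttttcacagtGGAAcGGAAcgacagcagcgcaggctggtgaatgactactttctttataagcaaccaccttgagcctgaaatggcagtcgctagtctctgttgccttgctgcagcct
*Il1r1*, chr9:50034133-50034382, plus strand: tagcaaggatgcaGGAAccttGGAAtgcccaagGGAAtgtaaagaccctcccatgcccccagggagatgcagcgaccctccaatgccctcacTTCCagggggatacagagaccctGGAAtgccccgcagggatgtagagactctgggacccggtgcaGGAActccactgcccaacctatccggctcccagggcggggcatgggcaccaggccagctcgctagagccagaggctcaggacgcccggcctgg
*Il18r1*, chr9:50223241-50223490, plus strand: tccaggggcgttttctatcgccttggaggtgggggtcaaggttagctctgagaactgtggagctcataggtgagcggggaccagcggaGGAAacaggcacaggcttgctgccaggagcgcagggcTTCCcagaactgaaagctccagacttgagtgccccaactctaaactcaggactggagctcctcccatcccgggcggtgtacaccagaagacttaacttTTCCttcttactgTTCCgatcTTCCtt
The core was found 5 times before *Il1rn*, 6 times before *Il1r1* and 5 times before *Il18r1*. It is short, and 93.2% of 33469 RefSeq promoters held at least 1 match in the same 250 bases, with a median of 3. The longer form CCGGAAGT, which contains the core, was searched on both strands as well. It was in none of the 3 windows and in 3.1% of all promoters. The 2 windows listed before *Il1rap*, not shown, held the core 2 and 4 times. A match is not a bound site.

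Between 898092 and 2248258 reads per library were counted on genes. Values are normalized counts, that is reads divided by the size factor of the library within its table, and the reads behind each value were recovered. The libraries of *Ets1* KO cells from spleen were deeper than their controls, with 1909862 to 2248258 against 898092 to 1213485 reads. *Ets1* KO replicate 3 from spleen stood apart from the other libraries of its group, with a chi-square per degree of freedom of 8.95 and 9.23 against them, where all other pairs within a group gave 1.48 to 4.6. Of 10 T cell markers 1, *Thy1*, was listed at 0 in all libraries. *Cd3d* was between 652 and 1580, while *Cd4* itself was low, between 6.45 and 49.1. *Map3k7* and *Map2k3*, kinases that most cells use, were listed at 0 in every library, so that a count at or near 0 is a listing and not proof of absence. *Grk2* was lower in the libraries labelled *Grk2* KO, at 53.3, 64.2 and 87.3 against 166, 166 and 142 in NT libraries (log2 difference −1.22, standard error 0.13, adjusted p = 1.76e-12 from limma). *Ets1* did not pass the test in the libraries labelled *Ets1* KO, with a log2 difference of 0.09 (standard error 0.07, adjusted p = 0.56) in the parenchyma and −0.06 (standard error 0.11, adjusted p = 0.854 from limma) in the spleen. Reads from transcript ends do not show an edit elsewhere in the transcript, so the *Ets1* labels were not checked by this value.

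Since these same comparisons chose the members, their KO and NT values are a description and carry no p value. In the parenchyma 4 of the 6 members had a mean normalized count of at least 10, the minimum for the fit across genes, and 2 did so in each of the spleen tables.

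**Figure D1:**
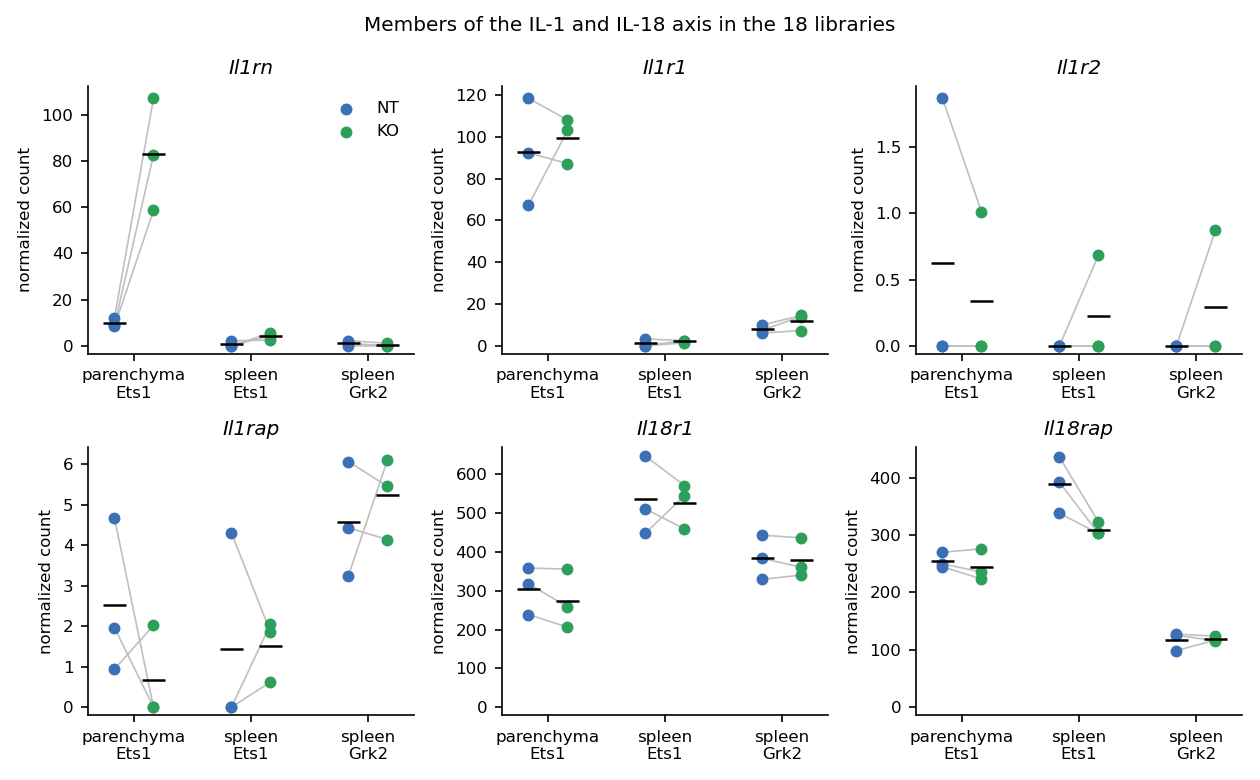
Normalized count (y axis, linear, 1 scale per panel) of each member in the 18 libraries, by table (x axis). Points are single libraries, NT in blue and KO in green, bars are means of 3, and grey lines join libraries with the same replicate number. *Il1rn* in the parenchyma is 8.41 to 12.2 in NT and 58.6 to 107 in KO libraries, and *Il18rap* in the spleen *Ets1* table is lower in all 3 KO libraries.

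*Il1rn*, the antagonist, was the member that differed most. In the parenchyma NT libraries its normalized count was 8.41, 12.2 and 8.85. In the *Ets1* KO libraries of the parenchyma it was 58.6, 107 and 82.7. Every KO library was thus above every NT library, as for 7.87% of the genes tested in this table, and the lowest KO value was several times the highest NT value. The means were 9.83 ± 2.09 and 82.8 ± 24.3 (SD, n = 3), a linear ratio of 8.43. The log2 difference was 2.93 with a standard error of 0.25, and it was 2.66, 3.03 and 3.09 in the pairs of the same replicate number. It was the largest log2 rise among the 7002 genes fitted in the parenchyma. The NT mean lay just under the minimum of 10, so *Il1rn* entered the fit through the KO libraries. The reads behind these values were 31 in the NT and 237 in the KO libraries. In counts per 1000000 reads on genes (CPM), summed over the libraries of a group, the KO to NT ratio was 8.46, with an exact 95% interval of 5.8 to 12.7 that covers counting error only.

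*Il1rn* reads were few in the spleen. The *Ets1* table held 0, 2 and 0 reads in NT and 8, 4 and 7 reads in KO libraries, or normalized counts of 0, 2.15 and 0 against 5.48, 2.48 and 4.37. The groups did not overlap, but the KO libraries were also the deeper ones. The ratio of CPM was 5.02 with an exact 95% interval of 1.21 to 44.5. Without replicate 3, whose KO library stood apart, it was 3.61 with an interval of 0.803 to 33.2. Among genes with a read but under the minimum in this table, 5.13% had all KO above all NT libraries. In the *Grk2* table, *Il1rn* had 0, 2 and 1 reads in NT and 0, 1 and 0 in KO libraries, too few to detect a difference at this depth.

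Because *Il1rn* is a gene that myeloid cells also use, markers of such cells are given beside it. Of 12 monocyte and macrophage markers 3, *Cd163*, *Mrc1* and *Adgre1*, were at 0 in all parenchyma libraries. Their summed normalized count was 25.4 to 51.1 in NT and 42.5 to 64.7 in *Ets1* KO libraries, so the groups overlapped. Most of it was *Lyz2*, with 30.8, 16.9 and 30.5 in NT and 45.5, 20.2 and 47.6 in KO libraries. Both the sum and *Lyz2* were higher in KO in all 3 pairs, and their part in the *Il1rn* difference was not tested. KO replicate 2 had the highest *Il1rn* of the KO libraries. Its *Lyz2* and its marker sum were the lowest of them. Its *Cd14*, *C1qb* and *C1qc*, at 4.04, 6.07 and 3.03, were the highest. The 10 neutrophil markers summed to 2.95 to 8.46 in NT and 4.04 to 13.1 in KO libraries, with *Elane*, *Csf3r*, *Cxcr2* and *Camp* at 0 in all 6. Markers of type 17 helper cells also moved with *Ets1* KO in the parenchyma. The 5 genes of that list summed to 431 to 545 in NT and 839 to 964 in KO libraries, and the part of this in the *Il1rn* difference was not tested. In bulk samples a change in the share of a cell type and a change in RNA per cell cannot be told apart.

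The members called in the fit were 1 of 4 in the parenchyma, *Il1rn*, where 5.23% of all genes tested were called. They were 0 of 2 in the spleen *Ets1* table, where 2.22% of all genes were called, and 0 of 2 in the *Grk2* table, where 1.56% were. Nothing is read from these counts, since the comparisons chose the members. The members that passed the minimum had a median log2 difference of 0.04 in the parenchyma, −0.17 in the spleen *Ets1* table and 0.00 in the *Grk2* table, beside −0.03, 0.00 and 0.02 over all genes tested.

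**Figure D2:**
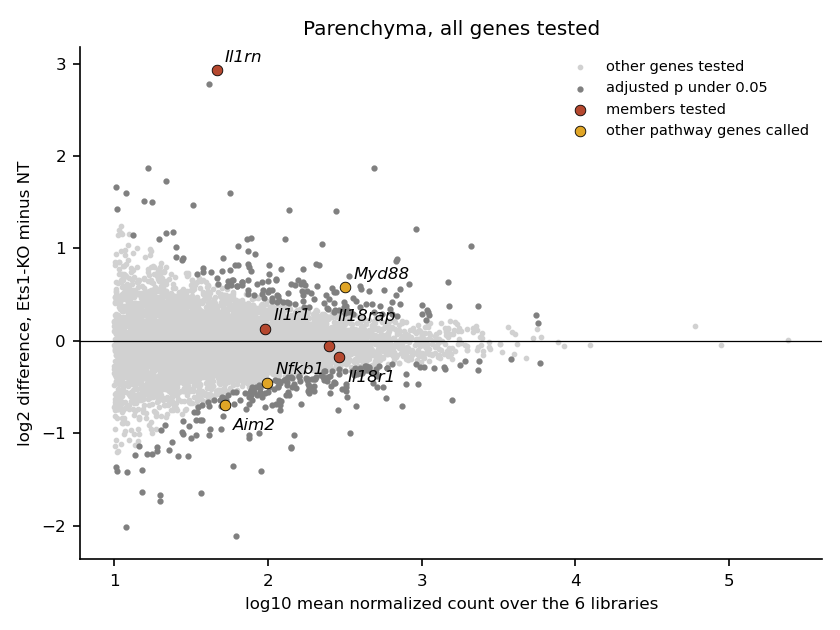
Log2 difference of *Ets1* KO and NT libraries (y axis) against the log10 mean normalized count over 6 libraries (x axis) for the 7002 genes tested in the parenchyma. Members are red and other pathway genes called are yellow. *Il1rn* lies at 2.93 at the top, while *Il1r1*, *Il18r1* and *Il18rap* lie between −0.17 and 0.13.

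*Il1r1*, the signalling receptor chain for IL-1, was a gene of the parenchyma libraries. Its normalized count there was 67.3, 118 and 92.4 in NT and 103, 108 and 87.3 in *Ets1* KO libraries. The groups overlapped, and the log2 difference of 0.13 was smaller than its standard error of 0.15. Only 1 of 3 pairs was higher in KO. The antagonist was thus higher with *Ets1* KO in the same libraries in which the receptor it occupies overlapped between the groups.

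In the spleen *Il1r1* fell under the minimum in both tables. The *Ets1* table held 0, 3 and 0 reads in NT and 2, 4 and 4 in KO libraries. The ratio of CPM was 1.76 with an exact 95% interval of 0.454 to 9.96. In the *Grk2* table its normalized count was 7.59, 9.98 and 6.07 in NT and 14, 14.5 and 7.28 in KO libraries. KO was higher in all 3 pairs of the *Grk2* table while the groups overlapped, and the ratio of CPM was 1.52 with an interval of 0.877 to 2.7. With a mean of 9.9 over the 6 libraries it missed the minimum narrowly.

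*Il1rap*, the accessory chain that IL-1 signalling needs, was low everywhere. Its reads were 5, 1 and 2 in NT and 0, 2 and 0 in KO libraries of the parenchyma. The spleen *Ets1* table held 0, 4 and 0 reads in NT and 3, 3 and 1 in KO libraries. The *Grk2* table held 3, 4 and 6 reads in NT and 7, 4 and 6 in KO libraries. The groups overlapped in all 3 tables, and the exact 95% interval of the KO to NT ratio of CPM was 0.0286 to 1.39 in the parenchyma, 0.235 to 4.31 in the spleen *Ets1* table and 0.527 to 2.58 in the *Grk2* table.

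*Il1r2*, the decoy receptor, had 2 reads in NT replicate 1 and 1 read in KO replicate 1 of the parenchyma and 0 in the other libraries there. In the spleen it had 1 read in KO replicate 1 of each table and 0 reads in all 6 NT libraries. In the parenchyma the KO to NT ratio of CPM was 0.553 with an exact 95% interval of 0.00938 to 10.6, too wide to detect a difference with these reads.

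*Il18r1*, the IL-18 binding chain, had values well above the minimum in all libraries. Its normalized count in the parenchyma was 359, 239 and 318 in NT and 356, 206 and 258 in *Ets1* KO libraries. In the spleen *Ets1* table it was 511, 449 and 647 in NT and 459, 545 and 571 in KO libraries. In the *Grk2* table it was 330, 384 and 443 in NT and 341, 360 and 437 in KO libraries. The groups overlapped in each table. The log2 differences were −0.17 (standard error 0.10), −0.02 (standard error 0.12) and −0.02 (standard error 0.08).

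*Il18rap*, the IL-18 accessory chain, was also above the minimum in each table. Its normalized count in the *Ets1* table was 392, 338 and 436 in NT and 303, 303 and 323 in KO libraries. All KO libraries lay below all NT libraries, as for 8.88% of the genes tested in this table, and the log2 difference was −0.32 (standard error 0.12). It was lower in KO in all 3 pairs, and without replicate 3 the log2 difference was −0.26. In the parenchyma *Il18rap* was 245, 270 and 250 in NT and 223, 276 and 236 in KO libraries, a log2 difference of −0.06 (standard error 0.11). In the *Grk2* table it was 98.6, 125 and 127 in NT and 117, 116 and 124 in KO libraries, a log2 difference of 0.03 (standard error 0.12). The *Ets1* effect in parenchyma minus that in spleen was 0.26 (standard error 0.15) for *Il18rap* and −0.16 (standard error 0.15) for *Il18r1*, on the log2 scale.

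The NT cells of the 3 tables give the level of each member in each tissue. The parenchyma is in 1 table only, so tissue and table cannot be told apart. The tables were scaled separately, so the levels are given as CPM, with no test, and the 2 spleen NT groups show how far tables differ within 1 tissue. CPM include the reads of mitochondrially encoded genes. These were 25.4% to 27.4% of reads in parenchyma NT libraries, 17.3% to 18.6% in spleen *Ets1* NT and 22.3% to 22.6% in *Grk2* NT libraries. Among 6490 genes past the minimum in both spleen tables, 59.5% had NT libraries that did not overlap between the tables, and 23.9% had means at least 2-fold apart.

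*Il1r1* in NT cells was 48.1, 81.5 and 65.4 CPM in the parenchyma, against 0, 2.5 and 0 in the spleen *Ets1* table and 5.94, 7.7 and 4.57 in the spleen *Grk2* table. All parenchyma libraries were above all spleen libraries, as for 11.9% of the genes past the minimum in the parenchyma. The ratio to the spleen *Grk2* table was 10.8, with an exact 95% interval of 7.03 to 17.6. The ratio to the spleen *Ets1* table, where only 3 reads were counted, was 72 with an interval of 24.4 to 351. Of the 7002 genes, 4.86% had a mean at least 2-fold that of both spleen groups, 2.01% at least 3-fold and 0.428% at least 10-fold. *Il1r1* was among them each time. Nothing is read from these shares, since control levels also chose the members. Over all 6 groups the order of means was parenchyma KO, parenchyma NT, *Grk2* KO, its NT, spleen *Ets1* KO and its NT. Neighbours in this order overlapped, except at the steps from parenchyma NT to *Grk2* KO and from the *Grk2* NT group to spleen *Ets1* KO.

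*Il1rn* in NT cells was 6.02, 8.41 and 6.26 CPM in the parenchyma, and at most 1.71 in any spleen NT library. On 31 reads against 2 and 3, the ratios were 11.5 (exact 95% interval 2.92 to 98.9) to the spleen *Ets1* table and 8.45 (2.63 to 43.2) to the *Grk2* table. In *Ets1* KO cells it was 41.8, 75.1 and 58.6 CPM in the parenchyma and 4.19, 1.9 and 3.11 in the spleen, a ratio of 19.3 with an interval of 12.1 to 32.7. Over the 6 groups, parenchyma KO, parenchyma NT and spleen *Ets1* KO stood in this order without overlap, and the other groups overlapped with each other below them. For *Il1rn* too all parenchyma NT libraries were above all spleen NT libraries, as for 11.9% of the genes past the minimum in the parenchyma. It is among those genes only through its KO libraries. Antagonist and receptor were thus both higher in CPM in the parenchyma NT group than in the spleen NT groups.

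The IL-18 receptor chains did not share this pattern. *Il18r1* in NT cells was 257, 164 and 225 CPM in the parenchyma, 385, 347 and 460 in the spleen *Ets1* table and 258, 296 and 333 in the *Grk2* table. In CPM all parenchyma libraries were below all spleen libraries, by a margin from 257 to 258 at the closest, as for 12.8% of genes. This margin depends on the scaling. In normalized counts *Il18r1* was 359 in parenchyma NT replicate 1 and 330 in *Grk2* NT replicate 1, so its separation from the *Grk2* table is not settled. *Il18rap* in NT cells was 175, 186 and 177 CPM in the parenchyma, 295, 261 and 310 in the spleen *Ets1* table and 77.2, 96.7 and 95.9 in the *Grk2* table. The parenchyma lay between the spleen groups, which differed from each other by a ratio of 0.314 (*Grk2* over *Ets1* table, exact 95% interval 0.276 to 0.357). A direction between tissues cannot be given for *Il18rap*. In CPM over the 6 groups, *Il18r1* overlapped between KO and NT of each table and not between tables. *Il18rap* did likewise, except that the spleen *Ets1* KO libraries, at 230 to 231, lay below their NT libraries. For *Il1rap* the NT ranges overlapped between the parenchyma, at 0.647 to 3.34 CPM, and both spleen groups, at 0 to 3.33 and 2.54 to 4.57.

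**Figure D3:**
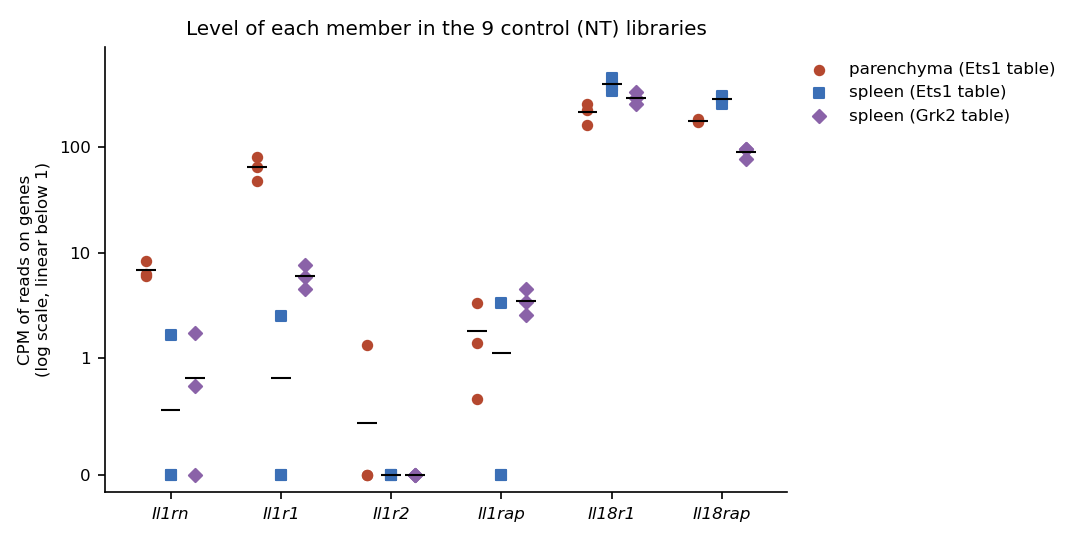
CPM of reads on genes (y axis, log scale, linear below 1) of each member (x axis) in the 9 NT libraries. Points are libraries, bars are means of 3. *Il1r1* in the parenchyma (48.1 to 81.5) lies above all spleen libraries (at most 7.7), while *Il18rap* in the parenchyma (175 to 186) lies between the spleen groups.

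Of the 6 members, 4 lie in 1 cluster on chromosome 9 of Rnor_6.0, the build of the tables. In order these are *Il1r2* (ENSRNOG00000014378, 46840991 to 46881264), *Il1r1* (ENSRNOG00000014504, 46962287 to 47036670), *Il18r1* (ENSRNOG00000015027, 47185442 to 47219175) and *Il18rap* (ENSRNOG00000054218, 47225584 to 47258503), all on the plus strand and within 418 kb. *Il18r1* and *Il18rap* are 6.41 kb apart. *Il1rn* (ENSRNOG00000005871) lies on chromosome 3 from 1452643 to 1468614 on the plus strand, and *Il1rap* (ENSRNOG00000001928) on chromosome 11 from 77463953 to 77593207 on the minus strand. None of the 6 overlaps another gene of the tables, and all are protein coding.

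Most genes around the cluster had few or no reads. Within 500 kb of a clustered member 14 other genes are annotated, and 2 of them, *Map4k4* and *Mfsd9*, passed the minimum in a table. *Il1rl1*, the receptor for IL-33, and *Il1rl2*, the receptor for IL-36, lie between *Il1r1* and *Il18r1* and had at most 5.67 normalized counts in any library. *Map4k4*, a kinase upstream of MAP kinase signalling, was higher with *Ets1* KO in the parenchyma (log2 difference 0.55, standard error 0.15, adjusted p = 0.00984 from limma). It lost the call without replicate 2 (adjusted p = 0.158) and without replicate 3 (adjusted p = 0.0676), and its adjusted p ranged from 0.00618 to 0.417 over 14 alternatives. It did not pass in the spleen, with an adjusted p of 0.602 for *Ets1* KO and 0.99 for *Grk2* KO from limma. *Mfsd9*, a predicted transporter, did not pass the test in the parenchyma (log2 difference −0.71, standard error 0.41) or the *Grk2* table (0.31, standard error 0.38).

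**Figure D4:**
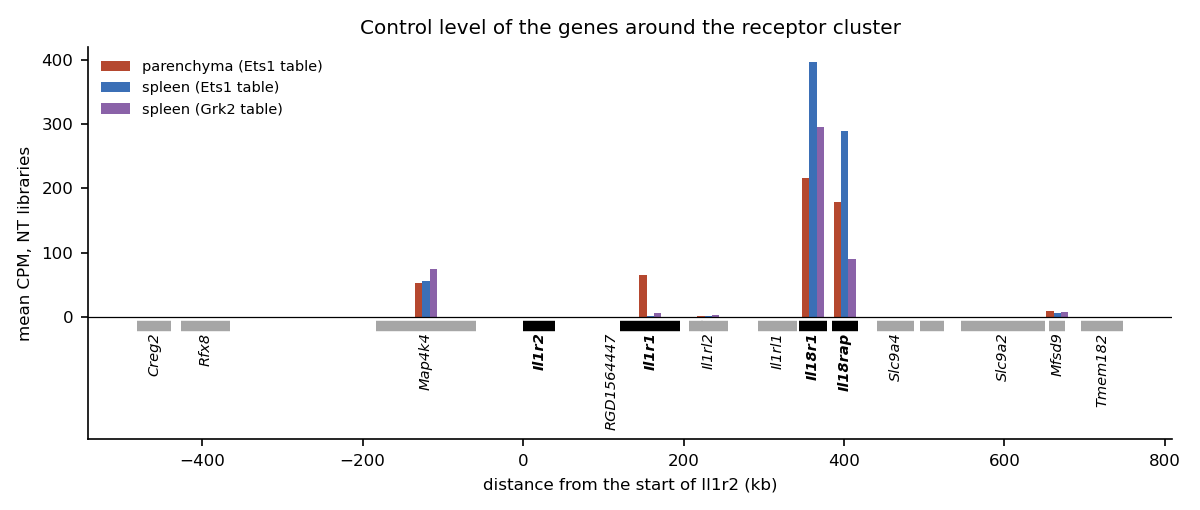
Mean CPM in NT libraries (y axis, bars of 3 libraries each) along the chromosome 9 cluster, as distance from the start of *Il1r2* in kb (x axis). Boxes mark gene bodies, members in black with bold names. *Il18r1* and *Il18rap* carry reads in all 3 groups, *Il1r1* mainly in the parenchyma, and the genes between them almost none.

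The rest of the pathway was described with 56 other genes in 5 lists, of which 55 were found. Of these, 29 were tested in the parenchyma, 26 in the spleen *Ets1* table and 29 in the *Grk2* table. Called genes were 3 in the parenchyma (1 higher and 2 lower), 0 in the spleen *Ets1* table and 1, lower, in the *Grk2* table. Of all genes tested, 5.23%, 2.22% and 1.56% were called in these tables. Nothing is read from counts this small, since the lists were chosen with earlier results known. The median log2 difference of the genes tested was −0.01, 0.06 and −0.02, beside −0.03, 0.00 and 0.02 over all genes tested.

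Few or no reads were listed for most of the ligands. Of 10 ligands and antagonists, *Il1a*, *Il36a*, *Il36b*, *Il36g*, *Il36rn* and *Il1f10* were listed at 0 in all 18 libraries. *Il1b*, *Il18* and *Il33* had at most 4.04 normalized counts in any library. *Il18bp*, which encodes the soluble inhibitor of IL-18, was the only one to reach the minimum. Its normalized count was 13.1, 10.3 and 21.6 in NT and 9.1, 14.2 and 10.2 in *Ets1* KO libraries of the parenchyma (log2 difference −0.36, standard error 0.37, adjusted p = 0.687 from limma). In the spleen *Ets1* table it was 4.38, 11.8 and 12.5 in NT and 11.6, 17.4 and 20.6 in KO libraries (0.81, standard error 0.39, adjusted p = 0.356 from limma). Of 5 other receptor chains 1, *Sigirr*, a negative regulator of the family, was tested. Its log2 difference was −0.13 (standard error 0.16) in the parenchyma, −0.01 (standard error 0.18) in the spleen *Ets1* table and 0.17 (standard error 0.21) in the *Grk2* table, and it passed in none. *Il1rapl1* and *Il1rapl2* were listed at 0 in all libraries.

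Of 8 genes tested of the MYD88 and IRAK list, *Myd88*, the shared adaptor of both receptor pairs, rose in the parenchyma. Its normalized count was 222, 308 and 240 in NT and 350, 402 and 391 in *Ets1* KO libraries. All KO lay above all NT libraries, as for 7.87% of the genes tested in the parenchyma. The log2 difference was 0.58 (standard error 0.10, adjusted p = 7.2e-07 from limma). It was called in 13 of 14 alternatives, and without the variance trend its adjusted p was 0.282. In the spleen *Ets1* table *Myd88* was 175, 180 and 161 in NT and 180, 193 and 189 in KO libraries (0.12, standard error 0.13, adjusted p = 0.735 from limma). The difference between the tissues was 0.46 (standard error 0.16, adjusted p = 0.133 from limma) and was not among the 2.1% of genes that passed this test, so that *Myd88* is not shown to respond differently in them.

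Of 14 genes tested below the IRAK kinases, *Nfkb1*, which encodes the p105 precursor of an NF-κB subunit, fell in the parenchyma. It was 144, 89.3 and 109 in NT and 113, 64.7 and 73.7 in KO libraries, lower in all 3 pairs while the groups overlapped (log2 difference −0.45, standard error 0.15, adjusted p = 0.0442 from limma). This call was lost in 11 of 14 alternatives, among them each of the 3 that left out a replicate.

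Of 5 genes tested of the inflammasome and cytokine processing list, *Aim2*, a sensor of cytosolic DNA, fell in the parenchyma. It was 60.7, 63.9 and 66.8 in NT and 56.6, 38.4 and 27.2 in KO libraries (log2 difference −0.70, standard error 0.20, adjusted p = 0.012 from limma). All KO lay below all NT libraries, as for 10.5% of the genes tested in the parenchyma. The call was lost in 8 of 14 alternatives, among them without replicate 2 and without replicate 3, where the log2 difference was −0.68 and −0.41. *Casp4*, an inflammatory caspase, fell with *Grk2* KO, from 18.4, 27.7 and 27.3 to 7.86, 7.25 and 16.4 (log2 difference −1.21, standard error 0.32, adjusted p = 0.023 from limma). That call was lost in 7 of 12 alternatives, among them each of the 3 that left out a replicate. In the parenchyma *Casp4* did not pass for *Ets1* KO (log2 difference −0.40, adjusted p = 0.196 from limma).

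**Figure D5:**
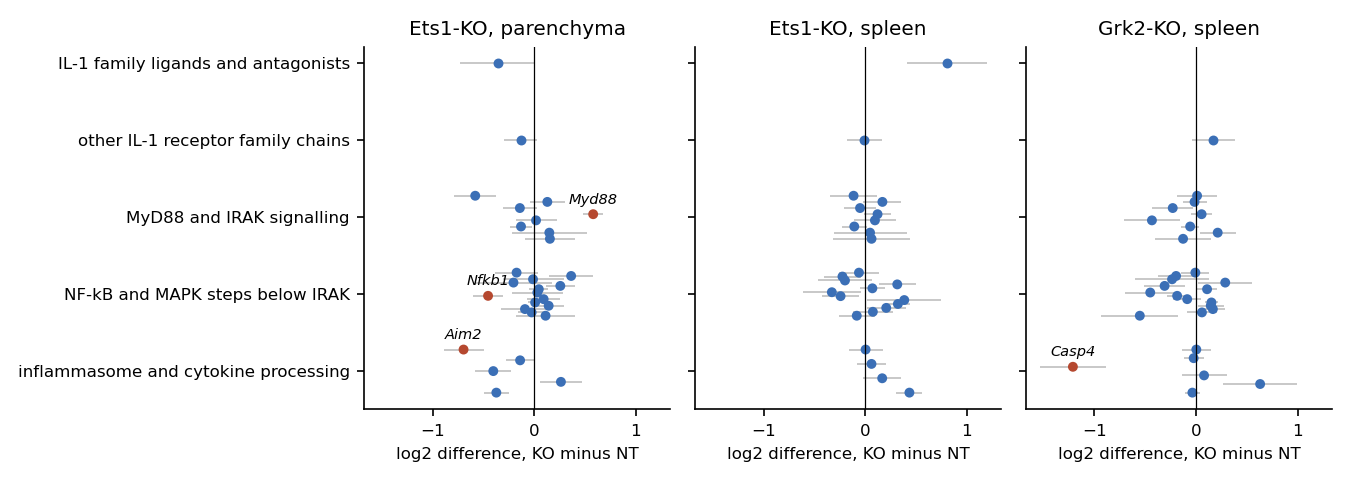
Log2 difference of KO and NT libraries (x axis) with its standard error for each tested gene of the 5 pathway lists (y axis) in the 3 tables. Red points passed the threshold of an adjusted p under 0.05 and are named. *Myd88* at 0.58 is the only gene called higher, *Aim2*, *Nfkb1* and *Casp4* are lower, and none is called in the spleen *Ets1* table.

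The genes whose values ran most like a member were sought by Pearson correlation over the libraries of the tables in which it passed the minimum, after centring each table. These are descriptions over few points that share their scaling, with the KO and NT difference left in. Over 6 parenchyma libraries and 7001 genes, *Il1rn* ran closest with *Ctsb*, a lysosomal protease (r = 0.998), *Ezh2*, a histone methyltransferase (r = 0.991), and *Calca*, which encodes calcitonin and its related peptide (r = 0.99). *Il1r1* ran closest with *Cdk6* (r = 0.987), *Mapk6* (r = 0.974) and *LOC100911664* (r = 0.973) over the same libraries. Over 18 libraries and 6206 genes, *Il18r1* ran closest with *Gvin1* (r = 0.931), *Ddx17* (r = 0.842) and *Nfe2l2* (r = 0.835). *Il18rap* ran closest with *Slco1a2* (r = 0.816), *Sf3b1* (r = 0.792) and *Rassf2* (r = 0.778). The 2 chains of the IL-18 receptor, next to each other on the chromosome, correlated with r = 0.113, which put *Il18rap* at rank 2430 of 6206 in likeness to *Il18r1*.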

How the data were processed

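Bulk 3′ mRNA-seq of sorted rat T-MBP cells was analysed in 18 libraries, 3 in each of 6 groups taken from the sample labels. According to the methods, the authors aligned 3′ reads to Rnor_6.0 with STAR and counted them per gene with HTSeq-count. The tools are listed as STAR 2.7.2b, HTSeq 1.0.0 and DESeq2 2.11.40.7 in the submitters' processing notes. The signal values deposited by the authors are read counts per gene divided by a size factor of each library (DESeq2, poscounts). All positive values were multiples of 1 step per library, within 0.01 of a whole number, which gave the reads back. Human samples (8 columns of values), the authors' fold changes and p values, and their enrichment tables were not used.

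In each table, genes whose mean over its 6 libraries reached 10 entered a fit of log2(normalized count + 1) by limma 3.58.1 (R 4.3.3; lmFit, eBayes with trend), two-sided, with replicate number as a block and Benjamini-Hochberg adjustment over all genes of the table, at 0.05. Fold changes on this scale understate the change of low genes. The effect in parenchyma minus that in spleen was fitted on the log2 ratios of pairs. Intervals of read ratios are exact conditional intervals and cover counting error only. The members and lists were chosen with earlier results of these data known.

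Genes named were the 6 members, the edited genes, pathway genes called in a table with all ligands and other receptor chains, genes within 500 kb of the clustered members that reached the minimum, and the 3 genes most like each member. The methods call the replicates biological, but the labels do not tie libraries to animals, so p values refer to these samples. The variance behind the limma p values was in part shared across genes through the trend. Alternatives were no block, pseudocounts of 0.5 and 5, other minimums, TMM and quantile scaling, no variance trend, edgeR 4.0.16, DESeq2 1.42.0 and each replicate left out.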

Additional observations from a re-analysis of the deposited data

Results flagged for a closer look

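The response to *Ets1* KO was compared between tissues by a test of the difference itself. Of 26 genes of the pathway lists tested, 1 passed, beside 2.1% of all 6520 genes tested. This was *Pycard*, which encodes the inflammasome adaptor ASC. The effect in parenchyma minus that in spleen was −0.81 on the log2 scale (standard error 0.17, adjusted p = 0.00592 from limma). In the parenchyma its normalized count was 164, 163 and 169 in NT and 141, 131 and 112 in KO libraries, lower in all 3 pairs. In the spleen it was 476, 580 and 310 in NT and 606, 618 and 566 in KO libraries, higher in all 3 pairs. Within neither tissue did the difference pass (adjusted p = 0.0562 in the parenchyma and 0.0736 in the spleen from limma). Without replicate 3, which holds the lowest NT value of the spleen and the KO library that stood apart, the difference between tissues was −0.49 (limma, adjusted p = 0.191). Over 10 alternatives the adjusted p ranged from 0.00259 to 0.31.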

How the results depend on the processing

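The replicate numbers were used as a block, since the methods describe transfer of KO and NT cells into the same animals and, where applicable, a correction for the animal. The labels do not state that a number marks an animal, and samples of the same number did not deviate together in every pair (correlations from −0.02 to 0.31 over the 9 pairs), so whether the numbers pair the samples is not settled. Without the block, the genes called were 200 in the parenchyma, 71 in the spleen *Ets1* table, 19 in the *Grk2* table and 47 for the difference between tissues, against 366, 155, 109 and 137 with it, and without the block *Aim2*, *Nfkb1*, *Casp4*, *Map4k4* and *Pycard* lost their calls (the pairing does not show that their effects are weaker). Without the variance trend the counts were 3, 0, 0 and 2. DESeq2 called 86, 55 and 12 genes with the block and 124, 83 and 15 without it. With no filter 212 genes were called in the parenchyma and 242 in the spleen *Ets1* table, and edgeR called 238 in the latter, and a minimum of 50 left 60 in the *Grk2* table. Leaving out 1 replicate gave 163 to 277, 3 to 232, 6 to 50 and 26 to 96 genes, lowest without replicate 2, 1, 2 and 1. The causes were not tested. Of the members, *Il1rn* in the parenchyma had log2 differences of 2.54 to 3.10 over the 13 alternatives that gave a value, and a minimum of 50 removed it, leaving 0 members called. *Ets1* in the spleen changed sign, with log2 differences of −0.14 to 0.0086 when 1 replicate was left out. *Grk2* lost its call without replicate 2 (adjusted p = 0.053) and without the trend (0.496). The values of *Il1rap* and *Il1r2*, and the spleen values of *Il1rn* and *Il1r1*, rest on few reads. Without replicate 2 the NT ratio of parenchyma to the spleen *Ets1* table could not be given for *Il1rn* and *Il1r1*, which then had 0 reads in the spleen.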
